A study of Homo sapiens with 6 samples.

Results

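The core genes of transforming growth factor-beta (TGF-beta) signalling were examined after knockdown of CLGN in Hep-G2, a long-established line of human liver cancer cells. The product of CLGN is calmegin, which helps newly made proteins fold in the endoplasmic reticulum. The group held 10 genes, picked by symbol from the 58735 genes of the expression table. They were the ligands TGFB1 and TGFB2, the latent ligand binding protein LTBP1, the receptors TGFBR1 and TGFBR2, the transcription factors SMAD2, SMAD3 and SMAD4, the SMAD co-repressor SKIL and the TGF-beta-induced matrix protein TGFBI. All 10 symbols were found once each, and all 10 passed the filter on low values that left 13074 genes for testing, in both groups. The 6 libraries were 3 sh-NC libraries (labelled genotype WT, treatment shcontrol) and 3 sh-CLGN libraries (labelled genotype CLGN knock down, treatment shCLGN). Both hairpins were delivered by lentivirus under puromycin selection, and the batch entry 0DAY was the same in all 6. Each group rested on 1 hairpin, so an effect of the hairpin or the culture and the loss of CLGN cannot be told apart. The labels do not say that replicates came from separate cultures, and p-values measure only the spread between these libraries, which may be technical.

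Levels are in FPKM, sequenced fragments in proportion to the length of the gene and the size of the library. The reads behind these values came to between 14955816 and 16244639 per library, and the ranges of the groups overlapped. CLGN fell from 23.8 ± 2.54 to 8.98 ± 0.453 FPKM (SD, n = 3), with all sh-CLGN libraries below all sh-NC libraries. The library sizes used in the deposited scaling were 0.933 to 0.953 of the read totals for sh-NC but 1.07 to 1.08 of them for sh-CLGN, which raised sh-NC levels relative to sh-CLGN levels when compared with plain read totals. Genes with at least 1 read numbered 23578 to 23793 under sh-NC and 26814 to 27006 under sh-CLGN. All 17 hepatocyte markers examined passed the filter, with a summed level of 9593 to 9759 FPKM under sh-NC and 9773 to 10409 FPKM under sh-CLGN. A sum mostly reflects the most abundant genes. Of the 17 markers, 6 were higher and 8 lower in sh-CLGN at a limma adjusted p of at most 0.05. Of all tested genes, 26.7% were higher and 39.0% lower at that level. In bulk RNA, fewer cells of a type and less RNA per cell cannot be told apart.

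TGF-beta ligands are secreted in a latent form, held by LTBP proteins in the matrix until released. The active ligand binds the type II receptor TGFBR2, which recruits and phosphorylates the type I receptor TGFBR1. TGFBR1 then phosphorylates SMAD2 and SMAD3, which join SMAD4 and enter the nucleus to bind DNA. SKIL, also called SnoN, binds SMADs and represses their targets. In liver the pathway is known for restraining hepatocyte growth and for driving fibrosis, and in liver cancer for both growth restraint and invasion.

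To show the DNA just upstream of the 3 members with the largest rises in sh-CLGN (TGFB2, TGFBR2 and LTBP1), the 250 bases before the annotated start are printed from the RefSeq promoter table (GRCh38.p14), with the start nearest to that of the expression table chosen for each gene. Capitals mark CAGAC, the SMAD-binding motif, or its reverse complement GTCTG, and in TGFB2 also CATTCC, the reverse complement of the TEAD motif GGAATG. The TGFB2 stretch is chr1:218345086-218345335, the TGFBR2 stretch chr3:30606351-30606600 and the LTBP1 stretch chr2:32946703-32946952, all on the plus strand.
TGFB2: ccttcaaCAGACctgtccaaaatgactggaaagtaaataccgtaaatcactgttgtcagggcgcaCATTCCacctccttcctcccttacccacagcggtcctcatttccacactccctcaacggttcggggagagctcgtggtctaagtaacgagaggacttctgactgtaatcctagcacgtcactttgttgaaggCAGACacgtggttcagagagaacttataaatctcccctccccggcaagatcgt
TGFBR2: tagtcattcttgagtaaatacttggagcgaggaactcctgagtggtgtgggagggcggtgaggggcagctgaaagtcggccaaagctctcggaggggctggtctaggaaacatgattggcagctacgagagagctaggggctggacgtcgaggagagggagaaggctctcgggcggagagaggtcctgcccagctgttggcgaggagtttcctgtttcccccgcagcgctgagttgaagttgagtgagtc
LTBP1: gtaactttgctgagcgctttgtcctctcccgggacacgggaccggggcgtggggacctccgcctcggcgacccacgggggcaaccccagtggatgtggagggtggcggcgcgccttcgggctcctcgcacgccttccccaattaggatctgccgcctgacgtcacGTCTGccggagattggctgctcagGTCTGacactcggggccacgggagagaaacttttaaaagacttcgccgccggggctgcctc
CAGAC was searched on both strands and lay in 4 of the 10 members' promoters, with 2 copies in TGFB2, 2 in LTBP1, 1 in SKIL and 1 in TGFBR1. Among all 35116 RefSeq promoters of this length, 38.0% held it. Of the 4 members that held it, TGFB2, LTBP1 and SKIL rose and TGFBR1 fell. Of the members without it, TGFBR2 rose, SMAD3 and SMAD4 fell, and TGFB1, SMAD2 and TGFBI did not pass the test. The part of the motif in these differences was not tested. Only 1 start per member was searched, although RefSeq gives 8 for TGFBR1, 5 for SMAD3 and 3 for LTBP1, so the count depends on that choice. The starts used for TGFB2, SMAD4 and SMAD3 lay 899, 1819 and 1839 bases from those of the expression table. The set of all promoters can hold several starts of a gene. TGANTCA, the AP-1 motif, was in 0 of 10 members and in 6.57% of all promoters, and GGAATG was in 1 of 10 members (TGFB2) and in 11.9% of all promoters. A match of these letters is a description of the window and not evidence of binding.

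The hairpin sequence was also compared with the members, since a short hairpin can pair with other transcripts through its seed. The target of the CLGN hairpin lies in the coding sequence of CLGN at chr4:140392328-140392346, minus strand, where capitals mark the bases that the seed and its next base would pair with.
CLGN target: cgacatatgtATACCACAa
The heptamers TACCACA and ATACCAC of this stretch were searched in annotated 3′ UTRs of GENCODE 29 protein-coding transcripts. TACCACA is the stretch that the seed would pair with if the guide began opposite the last base of the target, and ATACCAC lies 1 base further in. At least 1 of them was present in 4 of 10 members, namely TGFB2, SKIL, SMAD4 and SMAD2, and in 14.8% of the 10880 tested genes with a 3′ UTR of at least 50 bases. The SMAD2 annotation includes a 3′ UTR of 32870 bases, the longest of any member. TGFB2 and SKIL held ATACCAC only, SMAD4 held TACCACA only, and SMAD2 held both. The sites of TGFB2 (chr1:218444071-218444099, plus strand), SKIL (chr3:170393209-170393237, plus strand) and SMAD4 (chr18:51079700-51079728, plus strand), the members with a site that passed the test, are shown with 11 bases on either side and the heptamer in capitals.
TGFB2 site: ctggaaaagtcATACCACctttccgattg
SKIL site: gagaaaaactgATACCACtgttgtgtatc
SMAD4 site: tgtattgactgTACCACAgacacaatatg
Of the 4 genes with a heptamer, TGFB2 and SKIL rose, SMAD4 fell and SMAD2 did not pass the test. The ends of the processed hairpin are not given in the sources used here, and its part in any value was not tested.

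Across the pathway, 7 of 10 members passed an adjusted p of 0.05 in limma, and the same 7 had libraries that did not overlap between the groups. TGFB2, TGFBR2, LTBP1 and SKIL were higher in sh-CLGN, and TGFBR1, SMAD3 and SMAD4 were lower. These shares were close to those of all genes. Of the 13074 tested genes 65.8% passed, 26.7% higher against 4 of 10 members and 39.0% lower against 3 of 10, and 70.2% had libraries that did not overlap. The median difference over the 10 members was 0.10 in log2(FPKM + 1), beside -0.08 over all tested genes. Before adjustment, 8 of 10 members had a limma p of at most 0.05. The share of all tested genes at that level is not given here. Since 65.8% of them passed even after adjustment, 8 of 10 cannot be read as an excess. With an absolute difference of at least 1 required beside the adjusted p, 0 of 10 members and 6.28% of tested genes passed limma. TGFB2 lay just under that limit, and it passed both thresholds with voom on the recovered reads (1.18), a pseudocount of 0.1 (1.17), TPM rescaling (1.24), quantile normalization (1.02), read totals (1.15) and without sh-NC replicate 3 (1.08).

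**Figure D1:**
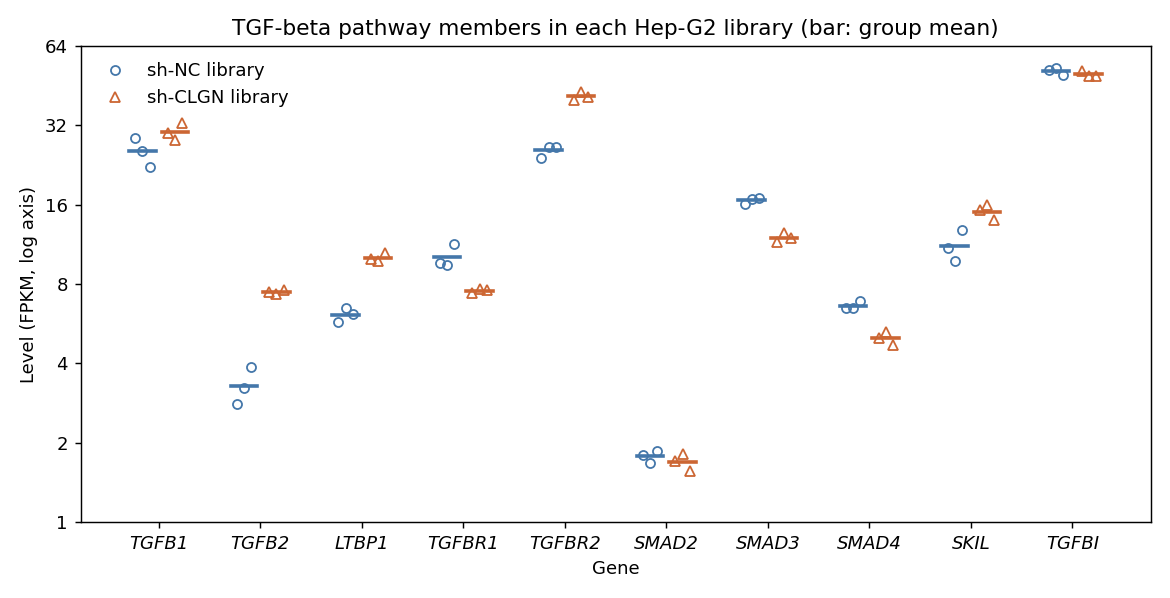
Levels of the 10 members in each library, in FPKM on a log axis, with circles for sh-NC, triangles for sh-CLGN and a bar at each group mean. TGFB2, TGFBR2, LTBP1 and SKIL lie higher in every sh-CLGN library, TGFBR1, SMAD3 and SMAD4 lie lower, and TGFB1, SMAD2 and TGFBI overlap.

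Among the ligands and their binding protein, TGFB2 and LTBP1 rose while TGFB1, the more abundant ligand, did not pass the test. TGFB2 (ENSG00000092969; chromosome 1, 218346235 to 218444619, plus strand, GRCh38) was at 2.80, 3.22 and 3.86 FPKM in the sh-NC libraries (in the order of replicates 1, 2 and 3) and at 7.46, 7.31 and 7.59 FPKM in the sh-CLGN libraries (same order, also for the other genes). Every sh-CLGN library was above every sh-NC library, and the spread was wider in sh-NC (SD 0.538) than in sh-CLGN (SD 0.140). The mean level was 2.26-fold higher, and the difference of 0.98 in log2(FPKM + 1) had an SE of 0.091 and a limma adjusted p of 5.24e-05. Only 6.65% of tested genes differed by more in either direction. TGFB2 rested on 201 to 652 reads per library, the fewest of any member.

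LTBP1 (ENSG00000049323; chromosome 2, 32946972 to 33399509, plus strand), which tethers latent TGF-beta to the matrix, was at 5.76, 6.48 and 6.15 FPKM in the sh-NC libraries and at 9.97, 9.75 and 10.5 FPKM in sh-CLGN. The groups were separated, with a mean level 1.65-fold higher in sh-CLGN and a difference of 0.64 in log2(FPKM + 1) (SE 0.061, limma adjusted p = 5.99e-05). TGFB1 (ENSG00000105329; chromosome 19, 41301587 to 41353911, minus strand) was at 28.6, 25.6 and 22.2 FPKM in the sh-NC libraries and at 29.9, 28.1 and 32.7 FPKM in sh-CLGN. The groups overlapped, since sh-CLGN replicate 2 lay below sh-NC replicate 1. Its difference was 0.24 in log2(FPKM + 1), with a 95% interval of 0.03 to 0.46 and a limma adjusted p of 0.0503. The call turned on single libraries, as TGFB1 passed without sh-NC replicate 1 (0.33, limma adjusted p = 0.0150) or without sh-CLGN replicate 2 (0.29, limma adjusted p = 0.0484), and the difference was 0.15 without sh-NC replicate 3. It passed as well after correction for GC content (0.47, limma adjusted p = 0.000219), with quantile normalization (0.51) and on read totals (0.43). TGFB1 overlaps HNRNPUL1 on the opposite strand, which held 4763 to 6188 reads per library, and CCDC97 likewise with 658 to 945 reads, and without known strandedness reads of the overlap cannot be assigned with certainty.

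The receptors moved in opposite directions. TGFBR2 (ENSG00000163513; chromosome 3, 30606502 to 30694142, plus strand), the ligand-binding type II receptor, was at 24.0, 26.5 and 26.5 FPKM in the sh-NC libraries and at 40.0, 42.7 and 41.1 FPKM in sh-CLGN. Its lowest sh-CLGN library stood well above its highest sh-NC library. The mean level was 1.61-fold higher, a difference of 0.66 in log2(FPKM + 1) (SE 0.056, limma adjusted p = 3.31e-05). TGFBR1 (ENSG00000106799; chromosome 9, 99104038 to 99154192, plus strand), the type I receptor kinase that acts on SMADs, was at 9.59, 9.43 and 11.4 FPKM in the sh-NC libraries and at 7.42, 7.67 and 7.57 FPKM in sh-CLGN. All sh-CLGN libraries lay below all sh-NC libraries, with sh-NC replicate 3 the highest. The mean sh-CLGN level was 0.746 of the sh-NC level, a difference of -0.38 in log2(FPKM + 1) (SE 0.074, limma adjusted p = 0.00257). On read totals the TGFBR1 difference shrank to -0.20 and no longer passed (limma adjusted p = 0.0520), while correction for GC content widened it to -0.58.

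Of the SMADs, SMAD3 and SMAD4 fell and SMAD2 did not pass the test. SMAD3 (ENSG00000166949; chromosome 15, 67063763 to 67195195, plus strand), a receptor-regulated SMAD that binds DNA directly, was at 16.1, 16.9 and 17.0 FPKM in the sh-NC libraries and at 11.5, 12.5 and 11.9 FPKM in sh-CLGN. Its groups were separated, and the mean sh-CLGN level was 0.719 of the sh-NC level. The difference was -0.44 in log2(FPKM + 1) (SE 0.052, limma adjusted p = 0.000174), and -0.25 with quantile normalization, still past the threshold. The antisense gene AC087482.1, which overlaps SMAD3, averaged 106 reads under sh-NC and 158 under sh-CLGN, against 1753 to 2399 reads per library for SMAD3.

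SMAD4 (ENSG00000141646; chromosome 18, 51028394 to 51085045, plus strand), the common partner of the receptor-regulated SMADs, was at 6.49, 6.48 and 6.90 FPKM in the sh-NC libraries and at 5.02, 5.28 and 4.68 FPKM in sh-CLGN. Each sh-CLGN library was below each sh-NC library. The difference was -0.35 in log2(FPKM + 1) (SE 0.062, limma adjusted p = 0.00153), and it was -0.18 on read totals, where it still passed. SMAD2 (ENSG00000175387; chromosome 18, 47808957 to 47931146, minus strand), the other receptor-regulated SMAD, was at 1.80, 1.68 and 1.87 FPKM in the sh-NC libraries and at 1.71, 1.82 and 1.57 FPKM in sh-CLGN. The groups overlapped, and the difference of -0.04 in log2(FPKM + 1) had a 95% interval of -0.23 to 0.14 (limma adjusted p = 0.637). Its sign changed on read totals (0.079) and with TPM rescaling (0.048), and after correction for GC content it was -0.21 and passed (limma adjusted p = 0.0228). SMAD2 levels were set by a gene length of 36366 bases in the table, so its FPKM was low although 891 to 1084 reads per library fell on it.

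SKIL and TGFBI are both known targets of the pathway. SKIL (ENSG00000136603; chromosome 3, 170357678 to 170396835, plus strand) was at 11.0, 9.77 and 12.9 FPKM in the sh-NC libraries and at 15.3, 15.9 and 14.0 FPKM in sh-CLGN. All sh-CLGN libraries were above all sh-NC libraries, though sh-NC replicate 3 came close to sh-CLGN replicate 3. The difference was 0.40 in log2(FPKM + 1) (SE 0.095, limma adjusted p = 0.00623). After correction for GC content it was 0.027 and did not pass (limma adjusted p = 0.671), and SKIL had the lowest GC content of the members, 33.4%. TGFBI (ENSG00000120708; chromosome 5, 136028895 to 136063818, plus strand), a secreted matrix protein, was at 51.8, 52.7 and 49.5 FPKM in the sh-NC libraries and at 51.3, 49.1 and 49.4 FPKM in sh-CLGN. The groups overlapped and the difference was -0.04 in log2(FPKM + 1) with a 95% interval of -0.15 to 0.07 (limma adjusted p = 0.496). The sign of this value depended on scaling, with 0.25 after quantile normalization and 0.15 on read totals, both past the threshold, 0.088 with TPM rescaling and 0.055 after correction for GC content. The sh-NC library farthest from its group median was replicate 3 in 6 of the 10 members.

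**Figure D2:**
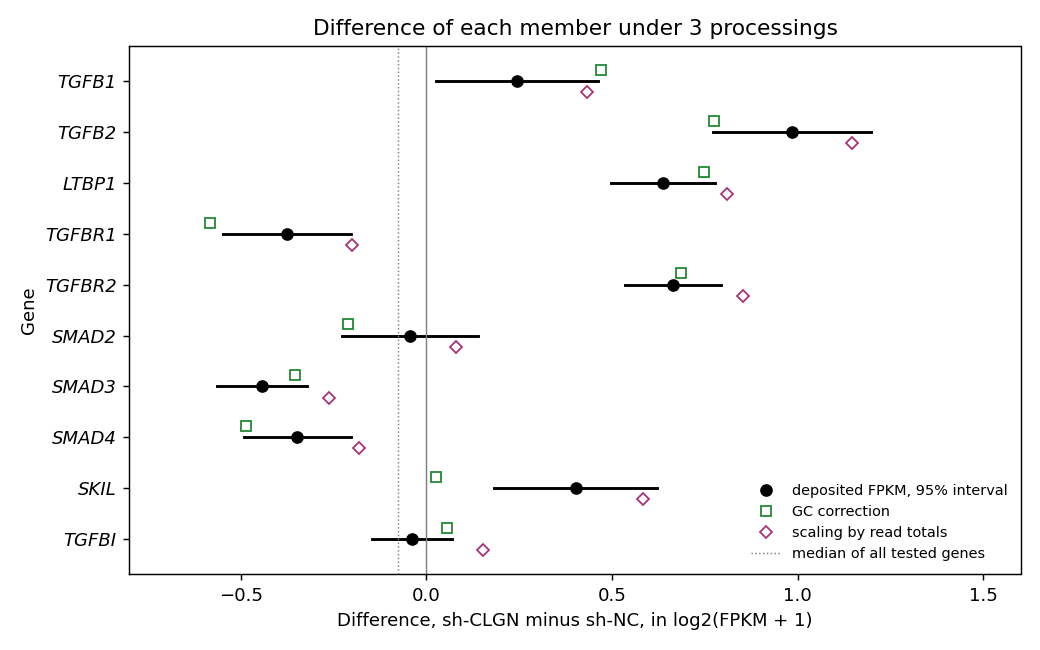
Difference between sh-CLGN and sh-NC for each member in log2(FPKM + 1), with black points and 95% intervals for the deposited scaling, squares after correction for GC content and diamonds on read totals. SKIL moves from 0.40 to 0.027 with the correction for GC content, and the read totals move every member to a higher value.

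In levels per length, TGFBI was the highest member in both groups (51.3 ± 1.64 FPKM under sh-NC and 49.9 ± 1.21 FPKM under sh-CLGN, SD, n = 3) and SMAD2 the lowest (1.78 ± 0.0970 and 1.70 ± 0.124 FPKM). In sh-NC, TGFBI was followed in order by TGFBR2, TGFB1, SMAD3, SKIL, TGFBR1, SMAD4, LTBP1 and TGFB2. Among neighbours in this order, the libraries of TGFBR2 and TGFB1 overlapped, as did those of SKIL and TGFBR1. In sh-CLGN the order after TGFBI was TGFBR2, TGFB1, SKIL, SMAD3, LTBP1, TGFBR1, TGFB2 and SMAD4, where only TGFBR1 and TGFB2 overlapped as neighbours. With the gene lengths of the expression table, SKIL thus stood above SMAD3, LTBP1 above TGFBR1, and TGFB2 above SMAD4 in sh-CLGN, each the other way round in sh-NC. The order between genes depends on these lengths. For SMAD3 the length used was 9113 bases and its longest transcript has 6247, while for SKIL the values are 7782 and 7182. Whether the order holds with other lengths was not tested.

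The balance within each pair of related members was compared as a share within a library, which does not depend on library scaling. TGFB2 made up 8.91, 11.2 and 14.8% of the summed FPKM of both ligands under sh-NC and 20.0, 20.6 and 18.8% under sh-CLGN. The TGFB2 share was higher in all sh-CLGN libraries, by 8.17 percentage points (11.6 ± 2.99% against 19.8 ± 0.903%, SD, n = 3, two-sided exact permutation p = 0.1). TGFBR2 took 71.5, 73.8 and 70.0% of the receptor pair under sh-NC and 84.3, 84.8 and 84.4% under sh-CLGN. Its share was higher by 12.8 points (71.7 ± 1.89% against 84.5 ± 0.234%, SD, n = 3, two-sided exact permutation p = 0.1). SMAD3 took 89.9, 91.0 and 90.1% of the pair with SMAD2 under sh-NC and 87.1, 87.3 and 88.4% under sh-CLGN, a difference of -2.74 points (exact permutation p = 0.1). For each of the 3 pairs the groups did not overlap, and 0.1 is the smallest p that 3 against 3 libraries allow, also after Benjamini-Hochberg adjustment over the 3 pairs. Among single tested genes 70.2% did not overlap either, and shares of other gene pairs were not computed. The lack of overlap is therefore not a result particular to these pairs. After correction for GC content the differences were 4.31 points for TGFB2, 16.9 points for TGFBR2 and -0.61 points for SMAD3, the last with an exact permutation p of 0.3. The level of a share depends on the gene lengths used, and with the longest transcript of each gene the SMAD3 share was 92.8% under sh-NC and 90.7% under sh-CLGN. The longest transcript of SMAD2, 34526 bases, is close to the 36366 bases of the expression table. This check therefore cannot show the level of the SMAD3 share with a shorter form of SMAD2.

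**Figure D3:**
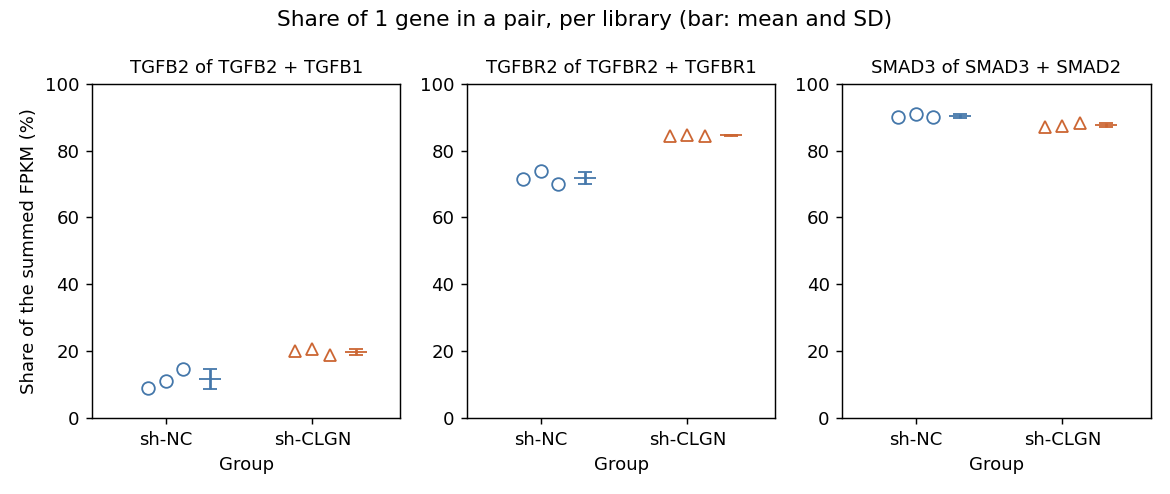
Share of 1 gene in the summed FPKM of a pair in each library, in percent, with circles for sh-NC, triangles for sh-CLGN and bars for the mean and SD. The TGFBR2 share sits near 71.7% in sh-NC and near 84.5% in sh-CLGN, the widest gap of the 3 pairs.

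TGFB2, the member with the largest difference, was compared with all tested genes for likeness over the 6 libraries, as the root mean square difference in log2(FPKM + 1) after each gene's sh-NC mean was subtracted. The closest were FGD4 (0.0447), P3H2 (0.0524) and CHST9 (0.0528). FGD4, a guanine nucleotide exchange factor for CDC42, went from 1.67 to 4.16 FPKM in the group means. P3H2, a collagen prolyl hydroxylase, went from 1.42 to 3.64 FPKM, and CHST9, a sulfotransferase, from 1.88 to 4.89 FPKM.

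The other genes of the pathway were counted on lists by role, without the members. Amounts by which they rose or fell are differences in log2(FPKM + 1), and medians are on that scale. Of all tested genes, 562 were below 1 FPKM in every sh-NC library and passed the filter through sh-CLGN only, so that a call of such a gene could only be a rise, and 162 passed through sh-NC only. List counts and medians are given without such genes, a choice made after seeing the data, beside -0.10 for the median of the 12350 remaining tested genes. Of these 12350 genes, limma called 2947 higher and 4952 lower in sh-CLGN, which is the background for the list counts. The list of ligands and activators also holds antagonists such as FST and LEFTY2, so its counts do not give a direction of activation. Of its 29 genes, 17 were tested and 15 reached 1 FPKM in both groups, of which 4 rose and 7 fell, with a median difference of -0.16. With the other 2, LEFTY2 and ITGB6, the median was 0.03. FURIN, the protease that cleaves TGF-beta precursors, fell from 362 ± 27.7 to 152 ± 8.40 FPKM (-1.25 in log2(FPKM + 1), limma adjusted p = 5.70e-06). ITGB5, an integrin subunit that pairs with the latent TGF-beta binding integrin chain ITGAV, fell by 0.72, and so did INHBE, an activin subunit. FST, the secreted activin antagonist follistatin, fell by 0.67. FBN1, the fibrillin to which LTBP proteins attach, rose from 1.23 ± 0.150 to 3.13 ± 0.169 FPKM (0.89 in log2(FPKM + 1), limma adjusted p = 5.09e-05). LEFTY2, a secreted inhibitor of the related NODAL pathway, was at 0.0599, 0.0859 and 0.0540 FPKM in the sh-NC libraries and at 1.75, 1.35 and 1.09 FPKM in sh-CLGN. As it had only 2 or 3 reads in each sh-NC library and passed the filter through sh-CLGN only, these levels are a description with no test. TGFB3, the other TGF-beta ligand, did not pass the filter on low values, and its mean was 0.256 FPKM under sh-NC and 1.04 FPKM under sh-CLGN.

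Of 13 other receptors and receptor partners 9 were tested and 8 reached 1 FPKM in both groups, of which 1 rose and 6 fell, with a median of -0.50. TGFBR3, the co-receptor betaglycan that presents TGFB2 to TGFBR2, was at 6.11, 6.04 and 6.50 FPKM in the sh-NC libraries and at 2.63, 2.52 and 2.58 FPKM in sh-CLGN. The groups were far apart (-1.01 in log2(FPKM + 1), limma adjusted p = 6.66e-06), opposite in direction to TGFBR2 and TGFB2. BAMBI, a decoy receptor, fell by 0.72, the type I receptor ACVR1B by 0.64 and FKBP1A, which binds the type I receptor, by 0.39. FKBP1A did not pass with quantile normalization (-0.10, limma adjusted p = 0.0866). STRAP, a receptor-binding inhibitor of the pathway, rose by 0.77. The NODAL receptor ACVR1C passed the filter through sh-CLGN only, with 0.653 ± 0.0338 FPKM under sh-NC and 1.92 ± 0.149 FPKM under sh-CLGN (SD, n = 3).

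Of 25 SMAD regulators 22 were tested, all reaching 1 FPKM in both groups, of which 5 rose and 11 fell, with a median of -0.22. AXIN1, a scaffold protein also of WNT signalling, fell by 1.08 and was the single regulator past both thresholds. The acetyltransferase CREBBP, a SMAD co-activator, fell by 0.80, the co-repressor SKI, the homolog of SKIL, by 0.65, the ubiquitin ligase NEDD4L by 0.64 and the ubiquitin ligase RNF111, which targets SKI and SKIL for degradation, by 0.48. SKI and SKIL thus changed in opposite directions in the deposited scaling, though not after the correction for GC content, where SKIL did not pass. The endocytic adaptor DAB2, which binds receptors and SMADs, rose by 0.82. With correction for GC content 3 regulators rose rather than 5, and 14 fell rather than 11.

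Genes known to be induced by TGF-beta moved both ways. Of 43 listed symbols 41 were in the table and 32 were tested. Of the 28 that reached 1 FPKM in both groups 11 rose and 12 fell, with a median of -0.11, and 4 rose and 4 fell past both thresholds. With the other 4, namely TAGLN, COL1A1, COL3A1 and ITGB6, the median was 0.08. Among those that fell past both, the transcription factors JUNB and KLF10 fell by 1.42 and 1.19 (limma adjusted p = 1.57e-05 and 7.40e-06), and the cell cycle inhibitor CDKN1A fell by 1.16. The matrix protein SPARC rose by 2.96 and the collagen gene COL1A2 by 2.94. Among the 4 that passed the filter through sh-CLGN only, the actin-binding protein TAGLN averaged 0.495 FPKM under sh-NC and 16.4 FPKM under sh-CLGN, COL1A1 averaged 0.327 and 3.29 FPKM, and COL3A1 averaged 0.265 and 1.67 FPKM. IGFBP3, which binds insulin-like growth factors, rose from 5.81 ± 0.376 to 18.2 ± 0.332 FPKM and the metalloproteinase inhibitor TIMP1 rose by 1.46.

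Part of this list also marks fibroblasts or stellate cells. Of 12 such markers 6 were tested, but COL1A1, COL3A1, LUM and TAGLN passed the filter through sh-CLGN only, which leaves COL1A2 and PDGFRB, both of which rose (by 2.94 and 0.27). The 12 markers had a summed level of 7.65 to 9.20 FPKM under sh-NC and 64.8 to 66.9 FPKM under sh-CLGN. Most of the sh-CLGN sum was COL1A2 (mean 4.20 FPKM under sh-NC and 38.7 FPKM under sh-CLGN) and TAGLN (0.495 and 16.4 FPKM). Of the 12 markers, FAP and POSTN were at 0 in all libraries, and THY1, DCN and ACTA2 were at or near 0, at no more than 5 reads in any library. The lists of targets and markers shared 4 tested genes, namely COL1A1, COL1A2, COL3A1 and TAGLN. The 7 endothelial markers summed to 3.44 to 3.75 FPKM under sh-NC and 2.40 to 2.79 FPKM under sh-CLGN, with KDR and ERG at 0 in all libraries. The 8 leukocyte markers summed to 70.0 to 77.8 FPKM and 61.4 to 68.6 FPKM, nearly all of it LYZ, with PTPRC at no more than 4 reads in any library. The part of other cell types in these values was not tested.

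**Figure D4:**
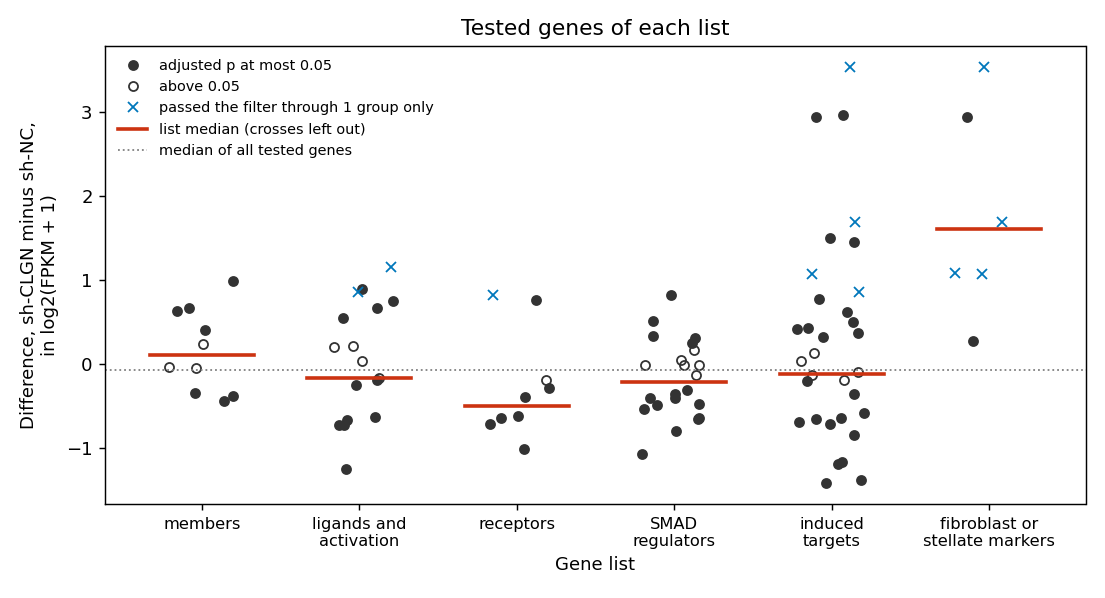
Difference between sh-CLGN and sh-NC in log2(FPKM + 1) for each tested gene of 6 lists, filled where the limma adjusted p was at most 0.05, with crosses for genes that passed the filter through 1 group only, the list median without them as a bar and the median of all tested genes (-0.08) as a dotted line. Unlike the bars, the dotted line includes genes that passed the filter through 1 group only, and the median without them was -0.10. Receptors and SMAD regulators lie mostly below 0, with medians of -0.50 and -0.22, and induced targets spread on both sides of 0.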

How the data were processed

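RNA from 3 sh-NC and 3 sh-CLGN Hep-G2 libraries was sequenced after preparation with a NEBNext Ultra kit. Gene-level FPKM values, with gene lengths and positions, were deposited by the authors in 1 table. The submitters' processing notes name HISAT2 2.0.5, featureCounts and GRCh38, while the strandedness of counting is not given in the sources used here. Reads shared by overlapping or near-identical genes may be split between them. All 58735 gene positions equalled those of GENCODE 29. FPKM times gene length fell on whole reads for 100% of values within 0.01 of a read, so reads per gene were recovered. Reads carried no molecular identifiers. No 2 libraries of a group agreed within counting noise (chi-square per gene 2.04 to 7.14), so none was merged as a duplicate, and replicates were taken from the labels. This does not show separate cultures.

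Differences are sh-CLGN minus sh-NC in log2(FPKM + 1), which understates changes of low genes, fitted in R 4.3.3 by limma 3.58.1 (eBayes, trend on mean level) for genes reaching 1 FPKM in 3 or more libraries. Two-sided p-values were adjusted by the Benjamini-Hochberg method over 13074 genes, and a call is an adjusted p of at most 0.05. The study's own test for these libraries is not given in the sources used here. On simulated data, 199 of 200 genes changed by 1.5 (log2) were recovered among 12686 genes, 8.29% of calls were false, and 2 calls were made where nothing changed. The changed genes were few, were not drawn from those with the fewest reads, and changed by more than any member did. These rates therefore do not describe changes of the members' size, or data in which most genes are called. GC trends were removed per library by lowess with a span of 0.3. Alternatives were a pseudocount of 0.1, no filter, TPM, quantile and read-total scaling, voom on recovered reads, the GC correction, a replicate block and leaving out each library. Shares recomputed with the longest transcript, and list counts without genes that passed the filter through 1 group only, were added after seeing the data. The members, lists and motifs were chosen with earlier results of these data known. Named genes are the members, CLGN, the 6 genes of each pathway list with the smallest adjusted p, any list gene past both thresholds (absolute difference of at least 1), and the 3 genes most like the member with the largest difference. A result that this rule would name is not reported here. TGFB3, the low-read cell type markers and the overlapping genes were named after their values were seen. Python 3.11.15 with pandas 2.3.3, numpy 2.4.6, scipy 1.17.1 and matplotlib 3.10.9 was used for shares, sequences and figures.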

Additional observations from a re-analysis of the deposited data

How the results depend on the processing

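The differences of TGFB2 (0.78 to 1.24), TGFBR2 (0.66 to 0.93), LTBP1 (0.64 to 0.82), SMAD3 (-0.48 to -0.25) and SMAD4 (-0.49 to -0.18) kept their direction and their limma call under all 14 alternatives, these ranges being those of the 8 that left out no library. TGFB1 passed the limma test under TPM rescaling (0.38), quantile normalization (0.51), read totals (0.43), voom on recovered reads (0.25) and the GC correction (0.47), and ranged from 0.15 to 0.33 when 1 library was left out. TGFBR1 did not pass on read totals (-0.20). SMAD2 was 0.048 under TPM rescaling, 0.079 on read totals and passed after the GC correction (-0.21). TGFBI was 0.088 under TPM rescaling, 0.25 with quantile normalization, 0.15 on read totals and 0.055 after the GC correction. SKIL did not pass after the GC correction (0.027), and 3 SMAD regulators rose and 14 fell there. The cause was not tested. Leaving out genes that passed the filter through 1 group only, chosen after seeing the data, moved the receptors that rose from 2 to 1. It also moved the induced targets that rose from 15 to 11 and the ligands and activators that rose from 6 to 4. Falls stayed at 12 for induced targets, 7 for ligands and activators and 6 for receptors, and the SMAD regulators did not change. TPM rescaling and read totals shifted the median of all tested genes by 0.11 and 0.16, and the correction for GC content by 0.0084.

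Past both thresholds, 821 genes passed, 49.2% of them higher. This count was 1606 with a pseudocount of 0.1 (925 higher, 57.6%), 1426 under TPM rescaling (1002 higher, 70.3%) and 1722 with voom (989 higher, 57.4%), and the higher share was 72.0% on read totals. Same-numbered libraries did not deviate together (correlations of -0.018, -0.046 and -0.15), so the numbers were not taken as pairs. With the replicate block no member's call changed (SKIL adjusted p = 0.0194 in limma) and 8038 genes passed the adjusted p, against 8598. The exact sign-flip permutation p of the TGFB2 share was then 0.25, the smallest that 3 pairs allow. Of the 29 list genes that meet the naming rule, 28 kept direction and call under all 14 alternatives, FKBP1A being the exception. The rule picked these genes by their small adjusted p or large difference in the same libraries. Kept calls were thus likely from the start, and the count is no sign of robustness. The share over all called genes is not given here. Among the 28 are LEFTY2, ACVR1C, TAGLN, COL1A1 and COL3A1, which passed the filter through sh-CLGN only. A call of these genes could only be a rise, so their unchanged direction is no sign of robustness. TGFB2 had the fewest reads, and 3 against 3 libraries limit every exact test to p = 0.1.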
